A study of Mus musculus with 6 samples.

Results

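The signalling genes of the bone morphogenetic protein (BMP), Tgf-beta and activin family were examined in the embryonic cortex of mice that lacked active Mest (or Peg1), an imprinted gene transcribed from the paternal chromosome. Members were all probes whose gene symbol in the platform annotation began with Bmp and a digit, Bmpr, Tgfb and a digit, Tgfbr, Smad and a digit, Acvr, Inhb, Gdf and a digit, Grem or Chrd, or was Inha, Nog or one of Id1 to Id4. This gave 60 probes for 55 genes of the 21766 probes measured, and 52 of them, for 48 genes, had enough values to be tested. The pattern reads names and not functions, so it also took in 5 probes for 4 proteins that are no family member by structure (Bmp1, Bmp2k, Tgfb1i1 and Tgfbrap1), which are given apart. Smad1 and Smad7 had no matching probe, and 1 receptor gene of the pattern, Acvr2a, lay on a probe that the annotation gives to several genes and was not described.

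Each of 6 two-colour spotted oligonucleotide arrays compared RNA of a Mest mutant cortex with RNA of a wild-type cortex, both at stage E12.5. The 6 mutants are separate embryos and each p measures the spread between these arrays. The mutants carried, from their father, a LacZ-targeted Mest allele without exons 3 to 8. Their mothers were wild type, so that the deletion was in every tissue and the maternal allele was intact. Mutants 3, 5 and 6 were labelled with Cy5, and mutants 1, 4 and 7 with Cy3. Only 3 wild-type cortices served as the other channel, each on 2 arrays of opposite dye: wild type 2 with mutants 3 and 1, wild type 8 with mutants 5 and 4, and wild type 9 with mutants 6 and 7. The label of the array of mutant 3 names wild type 1, which the design text does not list, and it was read as wild type 2. The sources used here do not give strain, litter or sex.

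Values are given as log2 of mutant over wild type, centred on each array's median, so that 0 means no difference relative to the typical probe and a negative value means lower in the mutant. They are listed in the order of mutants 3, 5 and 6 for Cy5 and of mutants 1, 4 and 7 for Cy3. Direction was taken from the dye labels and from Mest, the targeted gene, so Mest checks only that the labels match between arrays. The Mest probe had -1.36, -1.78 and -1.39 with the mutant in Cy5 and -1.50, -2.07 and -1.44 with the mutant in Cy3. This gave a fitted log2 ratio of -1.59 ± 0.13 (SE; limma, adjusted p = 0.60). Mest had the smallest adjusted p among all 17476 probes tested, so no probe passed the threshold of 0.05. Of the tested members 44 had all 6 values, 7 had 5 and Smad9 had 4, and an array yielded values for 46 to 57 of the 60 member probes. No member stood at the ceiling of the deposited values. Some deposited values equalled, to 3 decimals, the log2 of a quotient of whole numbers up to 10. At least 2 such values were found in 2 of 52 tested members (Gdf6 and Tgfb2) and in 1 of 8 untested members. The same held for 1570 of all 21766 probes, tested or not. A ratio holds no level, so which of these genes the cortex transcribed most was not measured, and the marker genes of the cortex could be checked only as ratios. In RNA of a whole cortex, fewer cells of a type and less RNA per cell cannot be told apart.

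In this family, a dimeric ligand joins a pair of type I and a pair of type II receptor kinases, and the type I kinase phosphorylates receptor-regulated Smads, which enter the nucleus with the common partner Smad4. BMP and some GDF ligands act through Smad1, Smad5 and Smad9, and Tgf-beta and activin through Smad2 and Smad3. Smad6 and Smad7 inhibit the pathway, and noggin, chordin and gremlin hold BMPs away from their receptors. In the dorsal forebrain, BMPs come from the roof plate and the cortical hem, where they direct midline and choroid plexus fates, and the Id genes are their best known early targets.

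The promoters of 4 genes are shown because their genes carry the readout of the pathway or stand out in it. Id2, Id3 and Smad6 are textbook targets of BMP signalling. Bmpr1a was picked from its values in these data, as a receptor whose 2 probes, described below, both had fitted ratios on the higher side. Each is the stretch of 250 bases before the RefSeq start (GRCm38.p6), written 5′ to 3′ along the gene, with capitals for 2 motifs that Smads are known to bind: the GC-rich motif GGCGCC, which reads alike on both strands, and CAGAC, searched also as GTCTG. Matches of both motifs may share a base, and each was counted on its own. Id2 lies at chr12:25096093-25096342 on the minus strand, Id3 at chr4:136143572-136143821 on the plus strand, Smad6 at chr9:64022060-64022309 on the minus strand and Bmpr1a at chr14:34502547-34502796 on the minus strand.
Id2 promoter: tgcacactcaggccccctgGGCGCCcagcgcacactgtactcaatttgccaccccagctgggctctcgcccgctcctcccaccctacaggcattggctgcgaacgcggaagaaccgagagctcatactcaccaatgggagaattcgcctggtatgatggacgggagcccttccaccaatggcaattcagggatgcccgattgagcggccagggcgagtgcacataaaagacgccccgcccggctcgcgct
Id3 promoter: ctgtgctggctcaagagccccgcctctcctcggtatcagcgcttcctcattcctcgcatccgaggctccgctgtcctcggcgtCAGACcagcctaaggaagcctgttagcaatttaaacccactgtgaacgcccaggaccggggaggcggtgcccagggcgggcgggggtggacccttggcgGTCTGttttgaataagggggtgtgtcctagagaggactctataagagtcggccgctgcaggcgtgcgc
Smad6 promoter: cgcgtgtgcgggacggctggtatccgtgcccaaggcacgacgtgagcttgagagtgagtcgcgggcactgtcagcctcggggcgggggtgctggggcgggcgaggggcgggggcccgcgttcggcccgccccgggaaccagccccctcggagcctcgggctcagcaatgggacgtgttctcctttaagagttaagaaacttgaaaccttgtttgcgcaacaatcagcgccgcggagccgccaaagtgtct
Bmpr1a promoter: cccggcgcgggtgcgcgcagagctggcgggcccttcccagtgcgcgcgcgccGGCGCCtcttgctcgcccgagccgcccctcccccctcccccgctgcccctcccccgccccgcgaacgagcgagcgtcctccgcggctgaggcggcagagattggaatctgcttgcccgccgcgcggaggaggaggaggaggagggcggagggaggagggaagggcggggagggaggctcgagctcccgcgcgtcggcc
The Id2 and Bmpr1a stretches hold 1 GGCGCC each, the Id3 stretch holds 2 copies of CAGAC and no GGCGCC, and the Smad6 stretch holds neither. RefSeq promoters were at hand for 38 of the 55 member genes, 45 promoters in all. GGCGCC occurred in 12 of these 45 (26.7%), against 9.6% of 32851 promoters in the whole table, and CAGAC in 20 of 45 (44.4%), against 42.2%. A match describes the letters and is not evidence of binding. GGCGCC holds only G and C, and the promoters were not matched for their content of these bases. Whether base composition alone gives its higher share was not tested.

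No gene of the family changed past the threshold in Mest mutant cortex. By limma with Benjamini-Hochberg adjustment over all 17476 probes, 0 of 52 member probes passed (0% of all probes), and the smallest adjusted p of a member was 0.90. Without adjustment, 3 of 52 members (5.77%) had a p under 0.05, against 3.93% of all probes. Acvr1 and Bmpr1a were on the higher side, 2 of 52 against 1.60% of all probes, and Gdf6 was on the lower side, 1 of 52 against 2.33%. A share this near that of all probes is no result about the members.

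**Figure D1:**
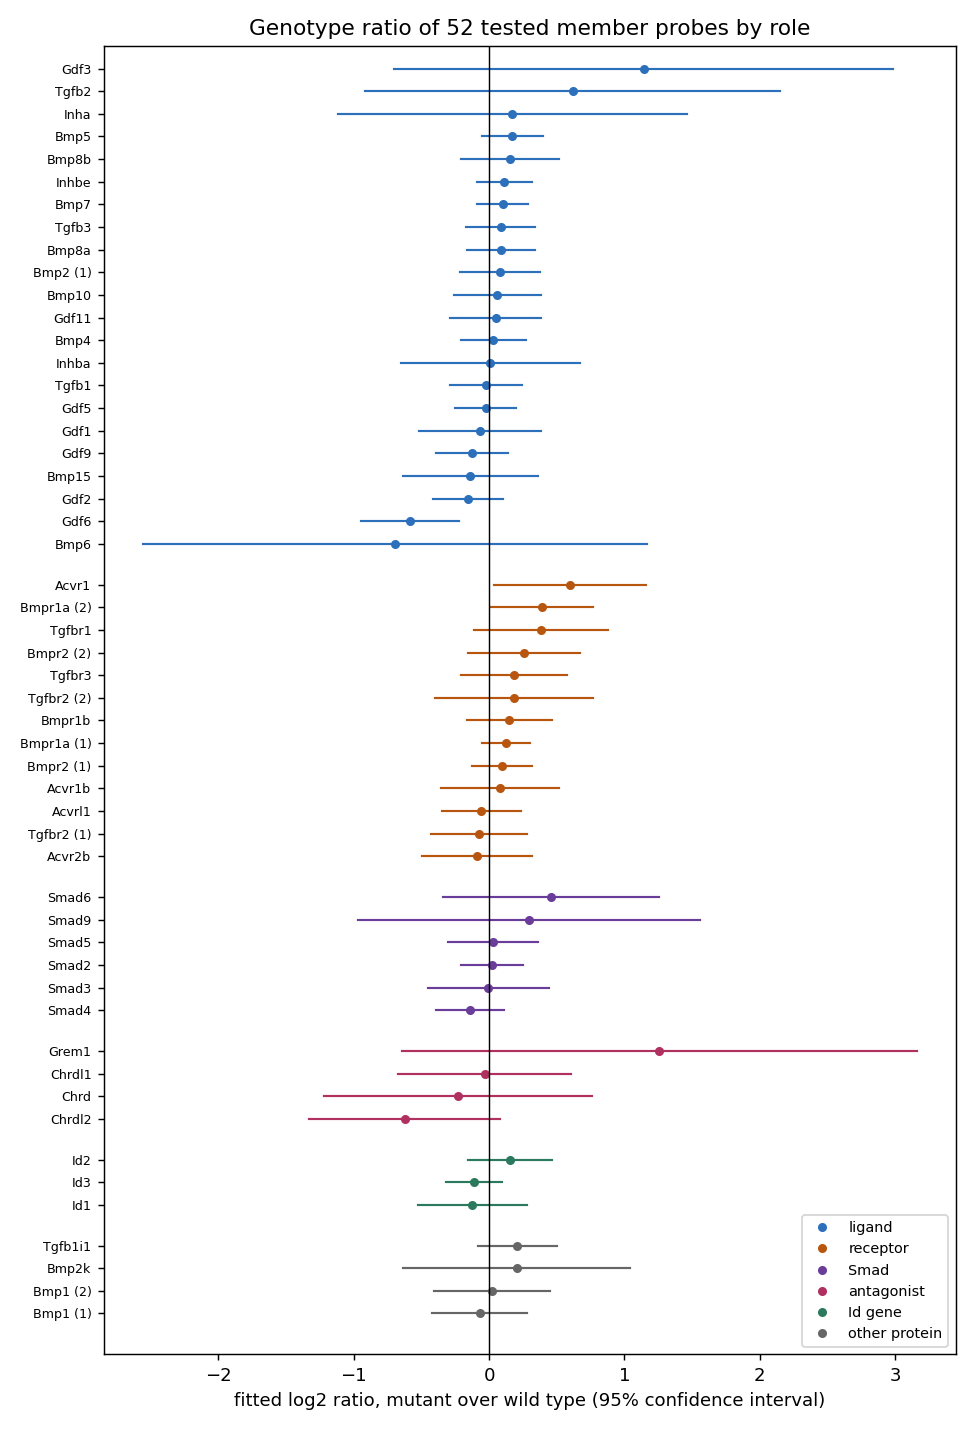
Fitted log2 ratio of mutant over wild type (x axis, points) with its 95% confidence interval (lines) for each of the 52 tested member probes, grouped and coloured by role, with the highest ratio at the top of each role. Every interval includes 0 except those of Gdf6, Acvr1 and the second Bmpr1a probe.

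The ratios were small for most members. The median of the 52 fitted log2 ratios was 0.071, against 0.0069 for all probes, with 33 of 52 members (63.5%) above 0, against 51.3% of all probes. These directions are relative to each array's median. Without centring, or with centring on the Gapdh control spots, the median of all probes was 0.26. In both cases 49 of 52 members were above 0, as were 84.6% (not centred) and 84.5% (Gapdh) of all probes. Regardless of sign the median size was 0.12, against 0.14 for all probes, and the median SE was 0.14, against 0.16. The 95% interval lay within 0.5 of 0 on the log2 scale for 28 of 52 members (53.8%), against 44.2% of all probes, and within 1 of 0 for 41 of 52 (78.8%), against 70.9%. For these members the arrays bounded the measured ratio relative to the array median, and for the others the spread between arrays was too wide to do so. Mest, the targeted gene, read 3.0-fold lower. Whether measured ratios are smaller than the true ones was not tested. The sign was the same on every array with a value for 4 members (7.69%, against 5.57% of all probes): Bmp7, Tgfb1i1 and the first Bmpr1a probe were above 0 throughout and Gdf6 was below 0 throughout.

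Ligands made up 27 probes, of which 22, for 22 genes, were tested. Their fitted log2 ratios were above 0 for 14 and below 0 for 8, with a median of 0.055, and they were the tightest role, with a median SD over arrays of 0.23 against 0.41 for all probes. Among the 16 tested probes of BMPs and GDFs, 9 were above 0 and 7 below, with a median of 0.040.

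Bmp4 and Bmp7, ligands of the dorsal midline, varied little between arrays. Bmp4, made by the roof plate and the hem, had log2 ratios of 0.11, -0.031 and -0.069 in Cy5 and 0.039, -0.13 and 0.27 in Cy3, with a fitted value of 0.032 ± 0.095 (SE) and a 95% interval of -0.21 to 0.27. Bmp7, which acts in the same tissue and in the meninges, had 0.019, 0.19 and 0.088 in Cy5 and 0.096, 0.18 and 0.029 in Cy3, fitted 0.10 ± 0.074 with an interval of -0.086 to 0.29. All 6 Bmp7 values were above 0 and the dye orientations overlapped. Bmp5, a close relative of Bmp7, had 0.22, 0.52 and 0.28 in Cy5 and -0.19, 0.099 and 0.10 in Cy3, fitted 0.17 ± 0.091, and was higher on each Cy5 array than on each Cy3 array. Its means over the paired arrays of wild types 2, 8 and 9 were 0.019, 0.31 and 0.19. Bmp2, a ligand of the same group as Bmp4, had -0.10, 0.26 and 0.032 in Cy5 and -0.093, 0.47 and -0.091 in Cy3 on its tested probe, fitted 0.080 ± 0.12, with both the mutants set against wild type 8 higher than the rest. Its second probe had only 3 values (-0.86 and -4.52 for mutants 3 and 5 in Cy5 and 0.74 for mutant 4 in Cy3) and was not tested. The adjusted p of Bmp2, Bmp4, Bmp5 and Bmp7 was 0.91, 0.95, 0.90 and 0.90 (limma).

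Bmp6, another ligand of the hem and choroid plexus, behaved differently. Its log2 ratios were -1.52, -5.89 and -1.57 in Cy5 and 2.88, 0.19 and 1.75 in Cy3, so that every mutant in Cy5 was below wild type and every mutant in Cy3 above it. The fitted value of -0.69 ± 0.74 (SE; limma, adjusted p = 0.90) had an interval of -2.56 to 1.17, and without mutant 5 it was 0.030. The dye coefficient, Cy5 minus Cy3, was -4.60, and the ratio as deposited was negative on all 6 arrays whichever dye held the mutant.

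Gdf6, a ligand of joint, skull and eye development, had the smallest p of the ligands. It had log2 ratios of -0.55 and -0.86 in Cy5 (mutants 3 and 6) and -0.59, -0.59 and -0.17 in Cy3, all below 0, and no value for mutant 5. The fitted value was -0.58 ± 0.14 (SE; limma, adjusted p = 0.90), or 1.5-fold lower, with an interval of -0.95 to -0.22. The 4 values other than that of mutant 7 lay at -0.55 or lower. At least 2 of its deposited ratios were quotients of small whole numbers, and it no longer entered the fit when such probes were left out. Without mutant 6 the fitted value was -0.46 and the interval included 0. The interval also included 0 without centring (fitted -0.35) and with centring on the Gapdh control spots (fitted -0.35). The same held with the mutant in Cy5 only (-0.70) or in Cy3 only (-0.45). The deposited ratio of mutant 4 was 0, so that its value of -0.59 came from the centring alone.

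Among the other GDFs, Gdf3, a ligand of the early embryo, was high on 1 array: its log2 ratios were 4.21 and 0.44 in Cy5 (mutants 3 and 6) and -0.35, 0.035 and 0.16 in Cy3. The fitted value of 1.14 ± 0.69 (SE; limma, adjusted p = 0.90) was 0.16 without mutant 3. Gdf2, which circulates and acts on vessels, had -0.10, -0.33 and 0.039 in Cy5 and -0.066, -0.46 and -0.020 in Cy3, fitted -0.16 ± 0.10 (adjusted p = 0.90), and was lowest for both mutants set against wild type 8. Gdf11, known for restraining neurogenesis in sensory epithelia and retina, had -0.021 and -0.0010 in Cy5 (mutants 3 and 6) and 0.20, 0.27 and -0.23 in Cy3, fitted 0.048 ± 0.12 (adjusted p = 0.95), with values on both sides of 0 and no value for mutant 5. Gdf7, a roof plate ligand, had 1.02 for mutant 6 in Cy5 and 2.58, -1.15 and 2.54 for mutants 1, 4 and 7 in Cy3. With 1 value in Cy5, Gdf7 was not tested. Gdf10, a relative of Bmp3 by sequence, had 3 values, 2.06 for mutant 6 in Cy5 and 0.38 and -0.94 for mutants 1 and 7 in Cy3, and was not tested either. The remaining ligands of this group were Bmp8b (0.16), Bmp8a (0.086) and Bmp10 (0.062) above 0, and Gdf5 (-0.024), Gdf1 (-0.067), Gdf9 (-0.12) and Bmp15 (-0.14) below it, as fitted log2 ratios. They include the oocyte ligands Gdf9 and Bmp15 and the heart ligand Bmp10, and the 95% interval of each included 0.

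The Tgf-beta ligands were 3 probes with a median of 0.087. Tgfb1, made by vessels and macrophages among other cells, had log2 ratios of -0.16, 0.14 and -0.25 in Cy5 and -0.18, 0.12 and 0.19 in Cy3, fitted -0.023 ± 0.11 (SE), and Tgfb3, known for its part in palate fusion, had 0.018, 0.27 and -0.14 in Cy5 and -0.076, 0.29 and 0.16 in Cy3, fitted 0.087 ± 0.10. Both spread over 0 in both dyes, with intervals of -0.29 to 0.24 and -0.17 to 0.34 and adjusted p of 0.97 and 0.90 (limma). Tgfb2, a ligand of heart and face development, had -0.91 and -0.19 in Cy5 (mutants 5 and 6) and 2.27, -0.17 and 3.05 in Cy3 and no value for mutant 3. Mutants 1 and 7 were high and the other 3 were below 0, the fitted value was 0.62 ± 0.57 (adjusted p = 0.90), and at least 2 of its deposited ratios were quotients of small whole numbers.

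Activin and inhibin are dimers of shared subunits, and 3 of their 5 probes were tested. Inhba, the subunit of activin A, had log2 ratios of -0.68, -1.83 and -1.17 in Cy5 and 1.18, 0.52 and 2.02 in Cy3. The signs were opposite in the dye orientations on all 6 arrays, the fitted value was 0.0083 ± 0.26 (SE; limma, adjusted p = 0.996) and the dye coefficient was -2.47 (adjusted p = 0.090), while the ratio as deposited was negative on all 6 arrays. Inhbe, a liver subunit, had 0.093, 0.32 and 0.10 in Cy5 and 0.042, 0.18 and -0.054 in Cy3, fitted 0.11 ± 0.081, and Inha, the subunit that makes a dimer an inhibin, had 1.49 and 0.55 in Cy5 (mutants 3 and 6) and -0.034, -1.95 and 0.51 in Cy3, fitted 0.17 ± 0.48. Inhbe was tight and Inha wide, and their adjusted p was 0.90 and 0.95. Inhbb, the subunit of activin B, had 1 value, 5.61 for mutant 6, and Inhbc, another liver subunit, had 1.45 and 1.66 for mutants 3 and 6 in Cy5 and -2.32 for mutant 4 in Cy3. Neither was tested.

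Receptors were the role with the largest share above 0. Of 13 tested probes for 10 genes, 10 had a fitted log2 ratio above 0, and the median was 0.15, against 0.0069 for all probes. Some genes have 2 probes, and with 1 value per gene 8 of 10 genes were above 0. Without centring all 13 receptor probes were above 0, against 84.6% of all probes. The mean of the 13 probes was 0.37, 0.50 and 0.17 for mutants 3, 5 and 6 in Cy5 and 0.0044, 0.059 and -0.034 for mutants 1, 4 and 7 in Cy3. In this mean the 3 Cy5 arrays were thus all higher than the 3 Cy3 arrays, but not every kind of receptor showed it. The type I probes had 0.55, 0.86 and 0.28 in Cy5 and -0.092, 0.062 and -0.10 in Cy3. They include Acvr1 and Acvr1b, which were above 0 in Cy5 and below 0 in Cy3 on every array. The type II probes had 0.14, -0.030 and 0.015 in Cy5 and 0.15, 0.034 and 0.13 in Cy3, with no such split. With the mutant in Cy5 only, 9 of 13 probes were above 0 with a median of 0.28, and with the mutant in Cy3 only, 7 of 13 with a median of 0.021.

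**Figure D2:**
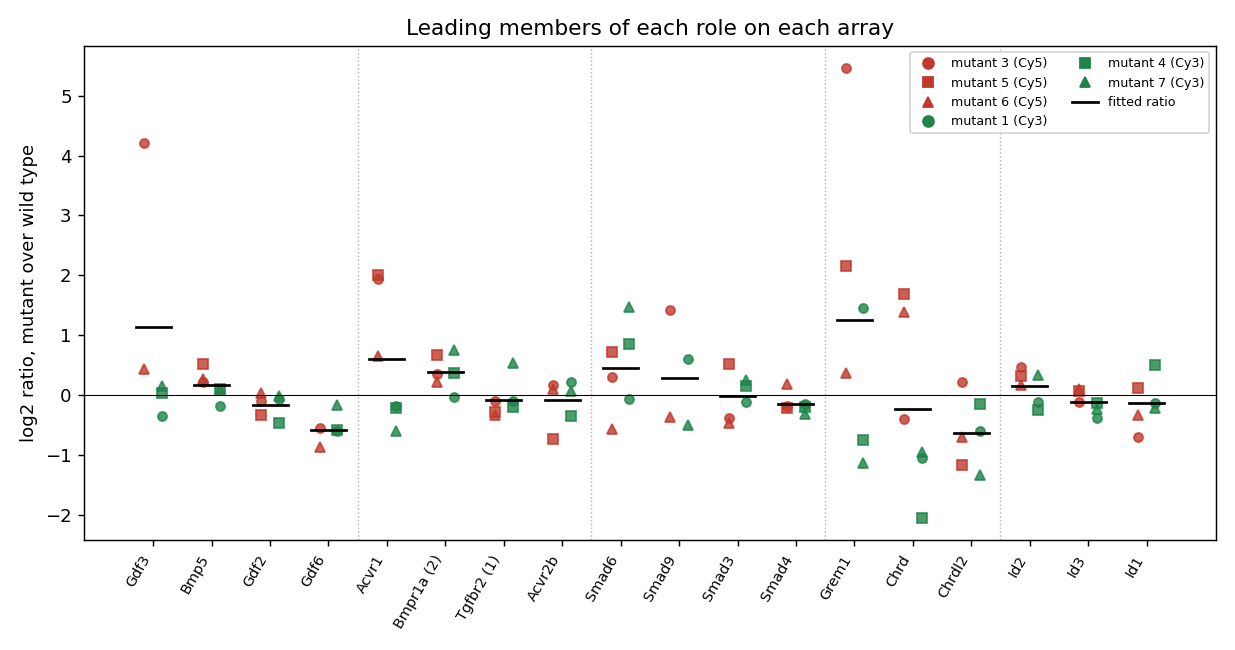
Log2 ratio of mutant over wild type (y axis) on each array for the leading probes of the signalling roles (2 smallest p per role and direction, and those with an unadjusted p under 0.05). Symbols mark mutants, red a mutant labelled with Cy5 and green a mutant labelled with Cy3, black bars the fitted ratio, and dotted lines separate ligands, receptors, Smads, antagonists and Id genes. Gdf6 lies below 0 on its 5 arrays, Acvr1 lies above 0 in Cy5 and below 0 in Cy3, and Grem1 and Gdf3 are highest for mutant 3.

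Bmpr1a, the type I receptor through which BMPs pattern the dorsal telencephalon, had 2 tested probes. The first had log2 ratios of 0.11, 0.18 and 0.084 in Cy5 and 0.077, 0.19 and 0.10 in Cy3, above 0 on every array, and a fitted value of 0.12 ± 0.070 (SE; limma, adjusted p = 0.90). Its SD over the 6 arrays, 0.048, was the smallest of all members. The second had 0.35, 0.66 and 0.22 in Cy5 and -0.026, 0.37 and 0.75 in Cy3, above 0 on 5 of 6 arrays, and a fitted value of 0.39 ± 0.15 (adjusted p = 0.90), or 1.31-fold, with an interval of 0.013 to 0.76. The dye coefficient was near 0 for both, -0.00083 and 0.046. In means over the paired arrays of wild types 2, 8 and 9 the first probe had 0.093, 0.18 and 0.094 and the second 0.16, 0.52 and 0.49, all above 0. Both probes thus lay on the same side, at different sizes. The interval of the second probe included 0 without mutant 3, 4, 5 or 7, when the fitted value was 0.37, 0.39, 0.33 or 0.27, with the wild type of mutant 3 as a block of its own, as its label names it, when it was 0.36, and without variance moderation.

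Acvr1, a type I receptor for BMPs, had the largest fitted receptor ratio, and it split by dye. Its log2 ratios were 1.94, 2.0 and 0.65 in Cy5 and -0.19, -0.21 and -0.60 in Cy3, so the dye orientations did not overlap and had opposite signs on every array. The fitted value was 0.60 ± 0.22 (SE; limma, adjusted p = 0.90), or 1.51-fold, with an interval of 0.034 to 1.16, and the dye coefficient was 1.86 (adjusted p = 0.10). With the mutant in Cy5 only the fitted value was 1.53, and with the mutant in Cy3 only it was -0.33. Means over the paired arrays, in which a dye effect cancels, were 0.88, 0.90 and 0.021 for wild types 2, 8 and 9, so that the mutants set against wild type 9 did not show the difference. Without any 1 of mutants 1, 3, 4, 5 and 7 the interval included 0, with fitted values of 0.48 to 0.60, as it did without the dye term or without variance moderation. Acvr1b, the type I receptor for activin, split in the same way with 1.41, 0.40 and 0.52 in Cy5 and -0.65, -0.59 and -0.62 in Cy3, a fitted value of 0.080 ± 0.17 (adjusted p = 0.94) and a dye coefficient of 1.39.

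The other type I receptors gave wider or smaller values. Tgfbr1, the type I receptor for Tgf-beta, had log2 ratios of 0.041, 1.23 and 0.50 in Cy5 and -0.15, 0.63 and 0.045 in Cy3, fitted 0.38 ± 0.20 (SE; limma, adjusted p = 0.90), and both mutants set against wild type 8 were above all the others. Bmpr1b, which overlaps with Bmpr1a in function in the dorsal midline, had 0.032, 0.68 and 0.12 in Cy5 and 0.12, 0.074 and -0.13 in Cy3, fitted 0.15 ± 0.13 (adjusted p = 0.90), with mutant 5 apart from the rest. Acvrl1, the receptor of endothelial cells, had -0.056 and -0.10 in Cy5 (mutants 3 and 6) and 0.18, -0.042 and -0.25 in Cy3, fitted -0.058 ± 0.11 (adjusted p = 0.93), and was the only type I receptor probe of the 7 with a fitted ratio below 0. Of the type I receptor probes, 6 of 7 were above 0 with a median of 0.15.

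Type II receptors bind ligand and activate the type I partner. Bmpr2, the type II receptor specific to BMPs, had 0.29, -0.050 and -0.053 in Cy5 and 0.19, 0.048 and 0.13 in Cy3 on its first probe, fitted 0.092 ± 0.088 (SE), and -0.064, -0.0015 and -0.25 in Cy5 and 0.054, 0.84 and 0.96 in Cy3 on its second, fitted 0.26 ± 0.16. The second probe was below 0 on the 3 Cy5 arrays and above 0 on the 3 Cy3 arrays, with a dye coefficient of -0.72, and the first showed no such split. Tgfbr2, the type II receptor for Tgf-beta, had -0.10, -0.27 and -0.33 in Cy5 and -0.093, -0.19 and 0.54 in Cy3 on its first probe, fitted -0.076 ± 0.14, and 0.41, 0.90 and 0.62 in Cy5 and 0.39, -0.18 and -1.04 in Cy3 on its second, fitted 0.18 ± 0.23. Its probes lay on opposite sides of 0, and mutant 7 was the highest on the first and the lowest on the second. Acvr2b, which serves activin and BMPs, had 0.16, -0.72 and 0.10 in Cy5 and 0.22, -0.35 and 0.067 in Cy3, fitted -0.087 ± 0.16, with both mutants set against wild type 8 below 0 and the other 4 above. The co-receptor Tgfbr3 (betaglycan) had 0.29, 0.99 and 0.11 in Cy5 and -0.053, 0.16 and -0.40 in Cy3, fitted 0.18 ± 0.16. For these 6 probes the adjusted p was 0.90 to 0.93 (limma), and of the 5 type II probes 3 were above 0 with a median of 0.092.

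**Figure D3:**
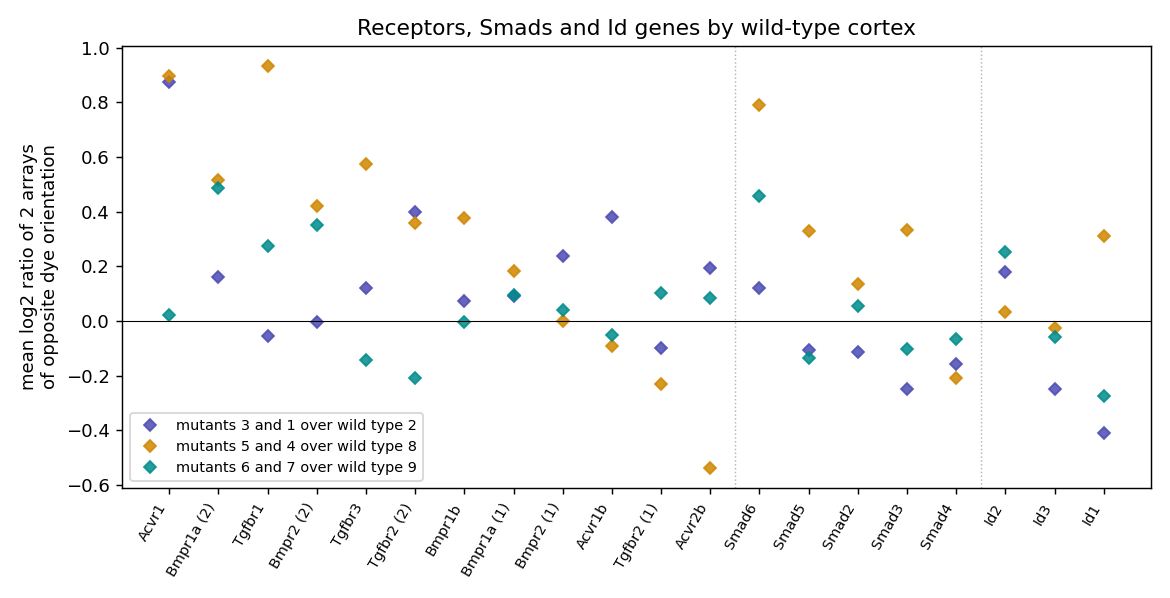
Mean log2 ratio of mutant over wild type (y axis) of the 2 arrays that share a wild-type cortex and have opposite dyes, for receptor, Smad and Id gene probes with values on all 6 arrays (x axis), with a symbol colour per wild-type cortex and dotted lines between the roles. Both Bmpr1a probes, Acvr1, Smad6 and Id2 are above 0 in all 3 means, and Smad4 and Id3, whose fitted ratios are above 0 without centring, are below 0 in all 3.

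Averaging each such pair of arrays cancels a dye offset and leaves 3 values per probe, 1 for each wild-type cortex. Of 44 member probes with all 6 values, 13 (29.5%) had 1 sign in all 3 means, against 29.3% of all such probes. Relative to the array medians, 10 of 44 (22.7%, against 15.6% of all such probes) were above 0 in all 3: Bmp5, Bmp7, Bmp10, Inhbe, Acvr1, both Bmpr1a probes, Smad6, Id2 and Tgfb1i1. Below 0 in all 3 were Smad4, Chrdl2 and Id3 (6.82%, against 13.7%).

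Smads, which carry the signal to the nucleus, were 6 tested probes with a median log2 ratio of 0.027, 4 above 0 and 2 below. Of the Smads of the Tgf-beta and activin branch, Smad2 had -0.040, 0.38 and 0.15 in Cy5 and -0.19, -0.11 and -0.042 in Cy3, fitted 0.025 ± 0.091 (SE; limma, adjusted p = 0.96), and Smad3 had -0.38, 0.52 and -0.46 in Cy5 and -0.11, 0.15 and 0.26 in Cy3, fitted -0.0051 ± 0.18 (adjusted p = 0.996). Smad3 was above 0 for both mutants set against wild type 8 and scattered for the others. On the BMP branch, Smad5 had 0.012, 0.67 and 0.25 in Cy5 and -0.23, -0.0080 and -0.53 in Cy3, fitted 0.028 ± 0.13 (adjusted p = 0.97), above 0 on every Cy5 array and below 0 on every Cy3 array. Smad9 had 4 values, 1.42 and -0.36 in Cy5 (mutants 3 and 6) and 0.60 and -0.49 in Cy3 (mutants 1 and 7), fitted 0.29 ± 0.42 (adjusted p = 0.91), above 0 for both mutants set against wild type 2 and below 0 for both set against wild type 9.

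Smad4, the partner of all receptor-regulated Smads, had -0.17, -0.22 and 0.19 in Cy5 and -0.14, -0.20 and -0.31 in Cy3, below 0 on 5 of 6 arrays, with a fitted log2 ratio of -0.14 ± 0.10 (SE; limma, adjusted p = 0.90) and means of -0.16, -0.21 and -0.065 over the pairs of wild types 2, 8 and 9. Its interval was -0.39 to 0.11, and without centring its ratio was 0.11. Smad6, an inhibitory Smad that BMPs induce, had 0.30, 0.72 and -0.56 in Cy5 and -0.058, 0.86 and 1.47 in Cy3, fitted 0.46 ± 0.32 (adjusted p = 0.90), with pair means of 0.12, 0.79 and 0.46, and 0.20 without mutant 7 and 0.72 without mutant 6. Values of Smad6 spanned both signs in both dyes, and its interval of -0.34 to 1.25 was the second widest of the Smads after Smad9.

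Antagonists were the widest role, with a median SD over arrays of 1.03, against 0.41 for all probes, and 1 of the 4 tested probes was above 0. Grem1, a secreted BMP antagonist of limb and mesenchyme, had log2 ratios of 5.45, 2.16 and 0.37 in Cy5 and 1.45, -0.75 and -1.14 in Cy3. Mutant 3 was the highest and 4 of 6 values were above 0, the fitted value was 1.26 ± 0.76 (SE; limma, adjusted p = 0.90) and without mutant 3 it was 0.68. Chrdl2, a chordin relative of cartilage, had 0.22, -1.17 and -0.70 in Cy5 and -0.59, -0.15 and -1.34 in Cy3, fitted -0.62 ± 0.28 (adjusted p = 0.90), below 0 on 5 of 6 arrays and in all 3 pair means (-0.19, -0.66 and -1.02). Chordin itself, Chrd, had -0.40, 1.68 and 1.38 in Cy5 and -1.04, -2.04 and -0.94 in Cy3, fitted -0.23 ± 0.39 (adjusted p = 0.92), with no overlap between the dye orientations and a dye coefficient of 2.23. Chrdl1, a brain relative of chordin, had -0.59, 0.99 and -0.094 in Cy5 and -0.22, -0.34 and 0.057 in Cy3, fitted -0.032 ± 0.25. The probe of Nog (noggin) had no value on any array. None of the 4 tested antagonists had an interval within 0.5 of 0.

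Id genes encode inhibitors of basic helix-loop-helix factors, and their transcription is a common readout of BMP signalling. Id1 had -0.70, 0.12 and -0.33 in Cy5 and -0.12, 0.51 and -0.22 in Cy3, fitted -0.12 ± 0.16 (SE; limma, adjusted p = 0.90). Id2 had 0.47, 0.31 and 0.17 in Cy5 and -0.12, -0.25 and 0.33 in Cy3, fitted 0.15 ± 0.12 (adjusted p = 0.90), and Id3 had -0.11, 0.071 and 0.11 in Cy5 and -0.39, -0.12 and -0.22 in Cy3, fitted -0.11 ± 0.081 (adjusted p = 0.90). The 3 genes did not lie on 1 side: Id1 and Id3 were below 0 and Id2 above it, and without centring Id1 and Id3 were above 0 too, at 0.13 and 0.14. Single arrays moved these small ratios: Id2 was 0.054 without mutant 7 and 0.23 without mutant 6, and Id1 was -0.040 without mutant 3 and -0.060 without mutant 7, against -0.23 without mutant 4 or mutant 5. Their intervals were -0.53 to 0.28 for Id1, -0.16 to 0.47 for Id2 and -0.32 to 0.094 for Id3. A measured difference of 1 log2 unit from the array median lay outside each. Id1 was above 0 for both mutants set against wild type 8 and below 0 for the other 4. Id4 had 2 values, 2.14 for mutant 6 in Cy5 and -1.0 for mutant 4 in Cy3, both deposited as quotients of small whole numbers, and was not tested.

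The name-matched proteins outside the family gave 4 tested probes, 3 above 0. Tgfb1i1 (Hic-5), a LIM adaptor of focal adhesions, had 0.066, 0.29 and 0.081 in Cy5 and 0.11, 0.10 and 0.61 in Cy3, all above 0, fitted 0.21 ± 0.12 (SE; limma, adjusted p = 0.90). Bmp2k, a kinase of the endocytic machinery, had -1.03, 0.98 and -0.048 in Cy5 and 0.85, 0.45 and 0.023 in Cy3, fitted 0.20 ± 0.33 (adjusted p = 0.92). Bmp1, a protease that matures collagen and cleaves chordin, had 0.57 and 0.18 in Cy5 (mutants 3 and 6) and -0.19, -0.70 and -0.56 in Cy3 on its first probe, fitted -0.070 ± 0.13 (adjusted p = 0.93), and -0.27, 0.77 and -0.054 in Cy5 and -0.23, -0.077 and -0.025 in Cy3 on its second, fitted 0.019 ± 0.17 (adjusted p = 0.99). The first Bmp1 probe was above 0 in Cy5 and below 0 in Cy3, which the second was not. Tgfbrap1, a receptor-associated protein, had no value.

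Dye coefficients had a median size of 0.27 over members and 0.35 over all probes, and genotype ratios 0.12 and 0.14. These sizes cannot be compared directly. The dye coefficient is a difference between the Cy5 and Cy3 arrays, and the genotype ratio is a mean over both. Its SE is therefore larger, for example 0.15 for the dye coefficient of Bmp4 against 0.095 for its genotype ratio. The dye coefficient had an unadjusted p under 0.05 for 10 of 52 members (19.2%), against 20.0% of all probes, and no member passed after adjustment, against 0.269% of all probes. Values of the Cy5 and Cy3 arrays did not overlap for 16 of 52 members (30.8%), against 29.8%. For 7 members (13.5%, against 14.5% of all probes) the sign was opposite between the dyes on every array: Inhba, Bmp6, Acvr1, Acvr1b, the second Bmpr2 probe, Smad5 and the first Bmp1 probe. These shares are those of the array as a whole. For Bmp6, for example, the fitted ratio was -2.99 with the mutant in Cy5 only and 1.60 with the mutant in Cy3 only.

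**Figure D4:**
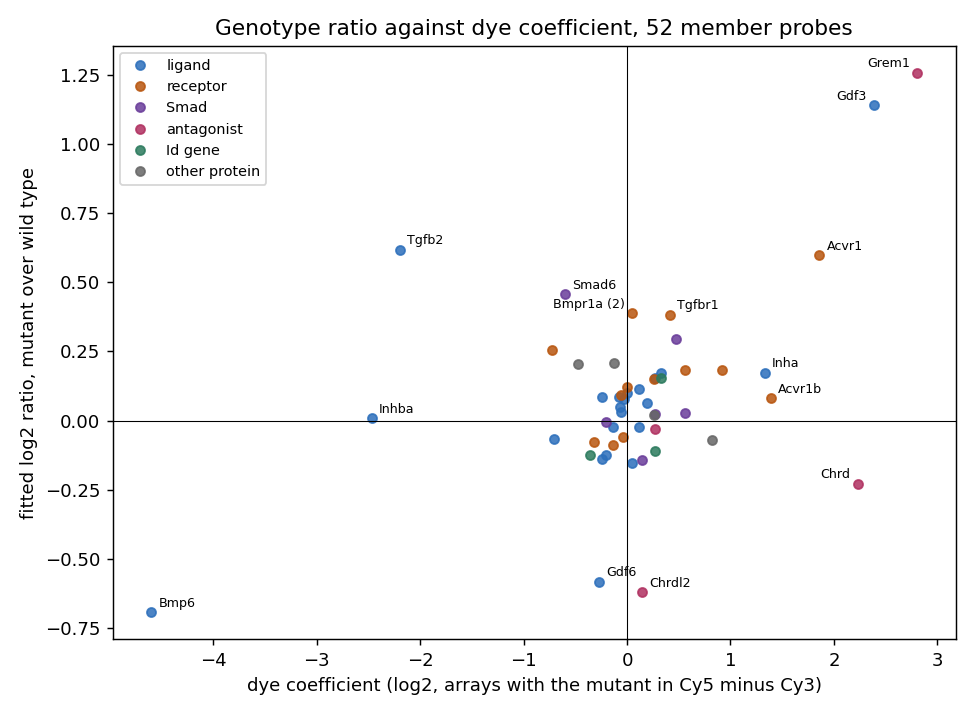
Fitted log2 ratio of mutant over wild type (y axis) against the dye coefficient, Cy5 minus Cy3 (x axis, log2), for the 52 tested member probes, coloured by role, with the outlying probes named. Bmp6 lies farthest left at a dye coefficient of -4.60, and Gdf6 and the second Bmpr1a probe combine fitted ratios of -0.58 and 0.39 with dye coefficients of -0.27 and 0.046.

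Pathway genes outside the pattern were counted from lists of other ligands, co-receptors, extracellular modulators, intracellular regulators and textbook targets. The 70 listed genes include Tgfb1i1 as a textbook target, which is described above as a member and was not counted again. Of the 70 genes, 58 had a probe outside the members, and 53 probes for 50 genes were tested. Of these probes 34 were above 0 and 19 below, with a median log2 ratio of 0.047, and 0 passed the adjusted threshold. Those with an unadjusted p under 0.05 were Tagln, a smooth muscle target of Tgf-beta, with 0.19, 0.96 and 0.83 in Cy5 and -0.19, 0.33 and 0.62 in Cy3 (fitted 0.46 ± 0.16, SE; limma, adjusted p = 0.90), and Hamp, the liver hormone hepcidin. Hamp had 1.63 and -0.029 in Cy5 (mutants 3 and 6) and -3.37 and -3.49 in Cy3 (mutants 1 and 4), fitted -1.36 ± 0.35 (adjusted p = 0.90), with a dye coefficient of 4.34. Tagln was thus above 0 on 5 of 6 arrays and Hamp split by dye. Of all probes, 3.93% had an unadjusted p under 0.05 and 51.3% had a fitted ratio above 0. With 53 probes tested, Tagln and Hamp are thus no result about the pathway. The textbook targets had 10 of 13 probes above 0 with a median of 0.091, and after Tagln and Hamp the smallest p were those of Acta2, smooth muscle actin (0.27), and Hey1, a Notch and BMP target (-0.18). Intracellular regulators had 13 of 17 above 0 with a median of 0.085, led by Skil, a Smad co-repressor (first probe 0.20), and Trim33, a Smad4 ligase (0.76 from 5 arrays), and on the lower side by the ubiquitin ligase Nedd4l (-0.17) and the second probe of the co-repressor Ski (-0.17).

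Extracellular modulators had 5 of 12 probes above 0, led by Thbs1, an activator of latent Tgf-beta (0.27), and Fstl1, a follistatin-like protein (0.23), against Tll1, a protease of the Bmp1 group (-0.17), and Ltbp4, a latent Tgf-beta binding protein (-0.21). Co-receptors had 3 of 7 above 0, led by the nodal co-receptors Tdgf1 (0.12) and Cfc1 (0.13), against the second probe of Neo1, a co-receptor with repulsive guidance molecules (-0.55), and Rgmb, one of those molecules (-0.096). The first Neo1 probe lay on the other side, at 0.035 from 6 arrays, while the second had values on 5. Cfc1 was below 0 on every Cy5 array and above 0 on every Cy3 array. The other ligands were Nodal (0.071), Lefty1 (0.071) and Amh (0.034) above 0 and Mstn (-0.32) below. None of these genes had an adjusted p under 0.90 (limma).

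The marker genes of the dorsal cortex, 8 probes for 7 genes including Emx1, Emx2, Pax6 and Tbr1, had a mean log2 ratio of -0.0025 ± 0.081 (SD over 6 arrays, -0.077 to 0.15). Markers of neighbouring tissues that make or answer these ligands lay near 0 in the mean but varied between arrays: -0.049 ± 0.22 for cortical hem and choroid plexus (9 probes, -0.38 to 0.16), -0.050 ± 0.19 for meninges and head mesenchyme (9 probes, -0.32 to 0.20), -0.040 ± 0.14 for endothelium (7 probes, -0.21 to 0.14) and 0.0024 ± 0.10 for macrophages (4 probes, -0.10 to 0.18). Epidermal markers had -0.45 ± 0.55 (5 probes, -1.32 to 0.24). In these means mutant 1 was the lowest array for epidermis, hem, meninges and endothelium, but its markers did not move together. Low single probes of mutant 1 were Trp63 (epidermis, -3.69), Kcne2 (hem, -1.83), Foxd1 (meninges, -1.28) and Esam (endothelium, -1.37). In the same lists Tfap2a (0.16), Aqp1 (0.33), Col3a1 (0.21) and Cdh5 (0.20) were above 0, and each list held further markers below 0. How far these tissues entered the values of single ligands and receptors was not tested.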

How the data were processed

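The deposited values, one per probe and array, are log2 ratios that the authors made from 6 two-colour arrays, with Trizol for the RNA per the labels' protocols. The sources used here give no scanner settings, background treatment or normalization. Neither scale nor direction is stated: both were read from the values, whose ceiling of 16.61 is log2 of 1e+05, from the dye labels and from Mest. Without spot intensities, dim and saturated spots were not recognisable and loess was not possible, and the number of arrays limits the precision.

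Ceiling values (588) were treated as missing and 232 Gapdh control spots were left out. Of 21766 probes, 16632 have 1 gene symbol in the platform annotation, 139 several and 4995 none. Ratios were turned to mutant over wild type and centred on each array's median. The fit used limma 3.58.1 (lmFit, eBayes; R 4.3.3) on probes with values on at least 4 arrays and 2 per dye orientation, with a genotype intercept, a dye term and the wild-type cortex as random block (consensus correlation 0.25), with Benjamini-Hochberg adjustment over all probes and a threshold of 0.05. The fit was tested on simulated data.

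Members, lists and the rule for named genes were chosen with earlier results of these data known. Every member was named, with values on each array for those with the 2 smallest p per role and direction, an unadjusted p under 0.05, several probes, or a known part in the dorsal forebrain. Of the other pathway genes, the 2 with the smallest p per list and direction were named. Alternatives changed the centring, block, dye term, filters, moderation and arrays used, and are given with the limits.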

Additional observations from a re-analysis of the deposited data

Results flagged for a closer look

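Among 52 member probes with 4 to 6 values, 5 had a single array whose gap to the next value took more of the range than Dixon's 95% limit allows (9.62%), against 1579 of all 17476 probes tested (9.04%); chance gives it in about 1 of 20 such groups. Gdf3, a ligand of the early embryo, had 4.21 for mutant 3, and the next value was 0.44. Bmpr1b had 0.68 for mutant 5, next to 0.12. The first Tgfbr2 probe had 0.54 for mutant 7, next to -0.093. Smad4 had 0.19 for mutant 6, next to -0.14. The second Bmp1 probe had 0.77 for mutant 5, next to -0.025. These are log2 values, mutant over wild type, and the cause was not tested.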

How the results depend on the processing

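By limma, 0 members passed the adjusted threshold under every alternative run, a threshold of 0.10 included, beside 3 members with an unadjusted p under 0.05 in the fit reported. The count of 3 became 12 with arrays centred on the Gapdh spots (all 12 higher in mutants) and 0 with arrays not centred, against 2 to 4 under the alternatives that kept all arrays and the centring. Leaving out 1 mutant gave 1 to 4, the lowest without mutant 5 and without mutant 7, in both cases Gdf6. Median centring decided the direction of small ratios: the median of all probes was 0.26 with either of those scalings. Then 49 of 52 members and 13 of 13 receptor probes were above 0, and 16 members changed sign. Of all probes 84.6% were above 0 without centring and 84.5% with the Gapdh spots. Of all probes with an unadjusted p under 0.05 the Gapdh spots gave 2671 higher and 90 lower. Small offsets common to all genes and centring cannot be told apart.

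Among the 16 are 9 of the probes with the smallest p per role and direction, whose uncentred and then Gapdh-centred log2 ratios were 0.097 and 0.11 for Gdf2, 0.18 and 0.18 for the first Tgfbr2 probe, 0.17 and 0.17 for Acvr2b, 0.11 and 0.12 for Smad4, 0.25 and 0.26 for Smad3, 0.024 and 0.032 for Chrd, 0.14 and 0.15 for Id3, 0.13 and 0.14 for Id1, and 0.15 and 0.16 for the first Bmp1 probe. The other 7 were Bmp15, Gdf1, Gdf5, Gdf9, Tgfb1, Acvrl1 and Chrdl1. With the mutant in Cy3 only, 18 of the 52 members changed sign, and with the mutant in Cy5 only, 11 did. Of these, only those among the probes with the smallest p per role and direction are given here. With the mutant in Cy3 only, Acvr1 had -0.33, Gdf3 -0.053, the first Tgfbr2 probe 0.085, Smad3 0.099, Grem1 -0.14, Id2 -0.011 and Id1 0.056. With the mutant in Cy5 only, Chrd had 0.89, Id3 0.023, Bmp2k -0.033 and the first Bmp1 probe 0.37. With 1 value per gene, Tgfbr2 had 0.053 and Bmp1 0.015. Leaving out 1 mutant in turn changed the sign of 4 to 8 of the 52 members. Among the probes with the smallest p, it moved the first Tgfbr2 probe between -0.20 and 0.0028, Acvr2b between -0.15 and 0.055, Smad9 between -0.067 and 0.61, Smad3 between -0.16 and 0.10, Chrd between -0.43 and 0.12, and Bmp2k between -0.051 and 0.49. Of the probes with the smallest p per role and direction, Gdf6, the second Bmpr1a probe, Bmp5, Smad6, Chrdl2 and Tgfb1i1 kept their direction under every alternative run. Gdf6 lay between -0.74 and -0.35, and Bmp5 was only 0.0060 with the mutant in Cy3 only. Other members are not listed here. The cause of these changes was not tested, and fits without 1 mutant took probes with at least 3 arrays.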
